A study of Arabidopsis thaliana with 24 samples.

Results

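The Aux/IAA and GH3 genes of Arabidopsis thaliana are the classic early response genes of auxin, the plant hormone that steers cell elongation, tropisms and root branching. The 37 genes described here were chosen by gene identifier as the 29 Aux/IAA genes and 8 GH3 genes, GH3.1 to GH3.6, GH3.10 and GH3.17, of the 33612 genes in the deposited count table. All 37 carry these names in the reference annotation. Of them, 34 had enough reads to be tested, 27 Aux/IAA and 7 GH3 genes. The 3 others were IAA15 with 20 counts over all libraries, IAA33 with 39, and GH3.4 with 0 counts in each library, where a count of 0 allows up to 3 fragments, or 6 counts, per library.

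Aux/IAA proteins are short-lived repressors that sit on auxin response factors (ARFs) and recruit TOPLESS corepressors. Auxin glues them to the F-box receptors TIR1 and AFB through a short degron, domain II, and they are then destroyed, which frees the ARFs. Many Aux/IAA genes are themselves switched on by auxin and so close a feedback loop. GH3 enzymes close another one, since most of those induced by auxin join it to amino acids and lower its free level. PIF4, a bHLH transcription factor, drives elongation in warmth in part through auxin, and IAA19 and IAA29 are among its known targets. PKL is a CHD3 chromatin remodeller that keeps seed genes silent after germination.

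Messenger RNA was sequenced from whole seedlings that were 9 days old, in libraries whose names carry the number 28, read here as 28 °C. Their labels give unbroken white light. The study also has libraries labelled for red light, but the tables named for red light held the same values. Which growth condition the values come from therefore rests on column names. The genotypes, as labelled, were WT, pkl (allele pkl-1), pif4 (no allele number given) and pklpif4, which carries both mutations. There were 3 biological replicates of each. Each mutation was represented by 1 labelled line, so its effect and any other difference of that line cannot be told apart. Totals per library were 37762216 to 56492669 counts in WT, 41220985 to 52980805 in pkl, 40168802 to 47237160 in pif4-labelled and 38675068 to 48991932 in pklpif4-labelled libraries.

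The PIF4 transcript did not fall in the libraries labelled pif4. Its level was 100 ± 4.56 normalised CPM in WT, 65.8 ± 2.97 in pkl, 174 ± 3.36 in pif4-labelled and 148 ± 1.09 in pklpif4-labelled libraries (mean ± SD, n = 3), a log2 change of 0.79 ± 0.03 from WT in the pif4-labelled ones (edgeR adjusted p = 8.02e-42). The PKL transcript lay between 91.8 and 104 CPM on average in all 4 groups. Neither transcript therefore checks its label, and the terms pif4-labelled and pklpif4-labelled are used throughout. Levels are CPM, in which counts are divided by TMM-adjusted library size, and changes are log2 differences with standard errors from edgeR's quasi-likelihood test. A gene is said to have risen or fallen where its Benjamini-Hochberg adjusted p over the 22130 genes tested was below 0.05.

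Markers of organs moved with the genotypes. The summed level of 16 root and root hair markers was 116 to 122 CPM in WT, 209 to 215 in pkl, 208 to 219 in pif4-labelled and 165 to 172 in pklpif4-labelled libraries. Of the 15 tested 10, 14 and 11 were higher than in WT and 1, 0 and 2 lower. Single genes weighed on the sum. In the same order of groups, PRP3 had means of 17.8, 67.1, 29.9 and 45.8 CPM. The iron uptake genes IRT1 and FRO2 had 14.6, 16.6, 50.1 and 3.35, and 6.96, 10, 26 and 4.07. SHR had 13.6 CPM in WT and 10.1 in pkl. The nitrate transporter gene NRT2.1 was near the floor throughout, with 2 counts in WT, 0 in pkl, 2 in pif4-labelled and 9 in pklpif4-labelled libraries, and was not tested. The 10 photosynthetic markers summed to 35768 to 36344 CPM in WT, 26689 to 27392 in pkl, 31391 to 31699 in pif4-labelled and 36450 to 37528 in pklpif4-labelled libraries. Against WT, 0 of them rose and 10 fell in pkl, 0 and 9 in pif4-labelled, and 3 and 3 in pklpif4-labelled libraries. RBCS1A weighed most on this sum, with means of 14743, 12389, 14586 and 15476 CPM in the same order of groups. The 13 seed and embryo markers summed to 53.2 to 55.2, 65.3 to 70.8, 58.5 to 59.9 and 4202 to 4242 CPM in the same order. Against WT, 10 rose and 2 fell in pkl, 5 and 2 in pif4-labelled, and 13 and 0 in pklpif4-labelled libraries. CRU3 had a mean of 16.7 CPM in WT, 1.13 in pkl and 1.7 in pif4-labelled libraries. SESA1 and SESA4 were at 0 in WT and SESA1 and SESA3 in pif4-labelled libraries, as was the cruciferin gene AT1G03890 in all groups but pklpif4. The part of these shifts in the auxin gene results was not tested. In whole seedlings, fewer cells of a type and less RNA per cell cannot be told apart.

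The degron is what makes an Aux/IAA protein a target of the receptor. Its invariant core of glycine, tryptophan and a pair of prolines was searched in the annotated coding sequence and found in 23 of the 29 Aux/IAA genes. It was not found in IAA20, IAA30, IAA31, IAA32, IAA33 and IAA34. The coding strand around the core is given below for 6 genes whose levels changed at least 2-fold in some comparison, read from the TAIR10.1 genome with the RefSeq annotation, with the 12 bases that code for the core in capitals.
IAA5, chr1:5366284-5366295, minus strand: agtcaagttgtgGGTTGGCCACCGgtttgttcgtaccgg
IAA6, chr1:19673332-19673343, minus strand: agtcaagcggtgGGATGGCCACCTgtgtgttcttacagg
IAA14, chr4:8349487-8349498, minus strand: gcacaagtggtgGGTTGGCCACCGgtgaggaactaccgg
IAA19, chr3:5264316-5264327, plus strand: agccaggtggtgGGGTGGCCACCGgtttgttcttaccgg
IAA28, chr5:9033821-9033832, plus strand: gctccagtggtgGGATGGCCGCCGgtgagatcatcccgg
IAA29, chr4:15583951-15583962, plus strand: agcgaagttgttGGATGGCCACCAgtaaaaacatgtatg
The positions here are those of the capitals, while positions beside gene identifiers are the spans of the deposited table, on TAIR10. Genes with the core carried almost all of the family's RNA. Their summed FPKM, which corrects for transcript length, was 957 in WT, against 2.53 for the 6 genes without it.

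A few genes supplied most of each family's transcript. In WT, 17 of the 37 genes had a mean FPKM over 10, 10 lay between 1 and 10 and 10 lay under 1. IAA16 (AT3G04730, chr3:1288612-1290602), a broadly expressed repressor, held 22.4% ± 0.381 (SD, n = 3) of the summed Aux/IAA FPKM in WT. It was followed by IAA7 (AXR2, a repressor of stem and root growth) with 14.1%, IAA2 with 13.0% and IAA8 with 10.3%. Together these 4 made up 59.7%. IAA16 stayed first in every group, with 20.9% in pkl, 22.0% in pif4-labelled and 21.5% in pklpif4-labelled libraries, while IAA9, a repressor linked to leaf form, went from rank 5 in WT to rank 2 in pklpif4-labelled libraries, with 8.95% and 12.7%. The Aux/IAA sum was 960 ± 5.67 FPKM in WT, 1049 ± 3.09 in pkl, 904 ± 11.1 in pif4-labelled and 873 ± 12.6 in pklpif4-labelled libraries.

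The GH3 family changed more in make-up. Its summed FPKM was 115 ± 0.99 in WT, 163 ± 1.4 in pkl, 83.2 ± 1.2 in pif4-labelled and 91.6 ± 0.778 in pklpif4-labelled libraries. GH3.5 (WES1), which conjugates auxin and also acts on salicylic acid, held 46.9% ± 1.48 of that sum in WT and 44.1% ± 0.7 in pkl. In pif4-labelled libraries its share was 27.6% ± 1.32. It then ranked behind GH3.17, which joins auxin to glutamate, with 31.9% ± 1.51, and GH3.6 (DFL1), known from hypocotyl growth in light, with 30.8% ± 0.506. In pklpif4-labelled libraries GH3.5 was first again with 33.1% ± 0.488.

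**Figure D1:**
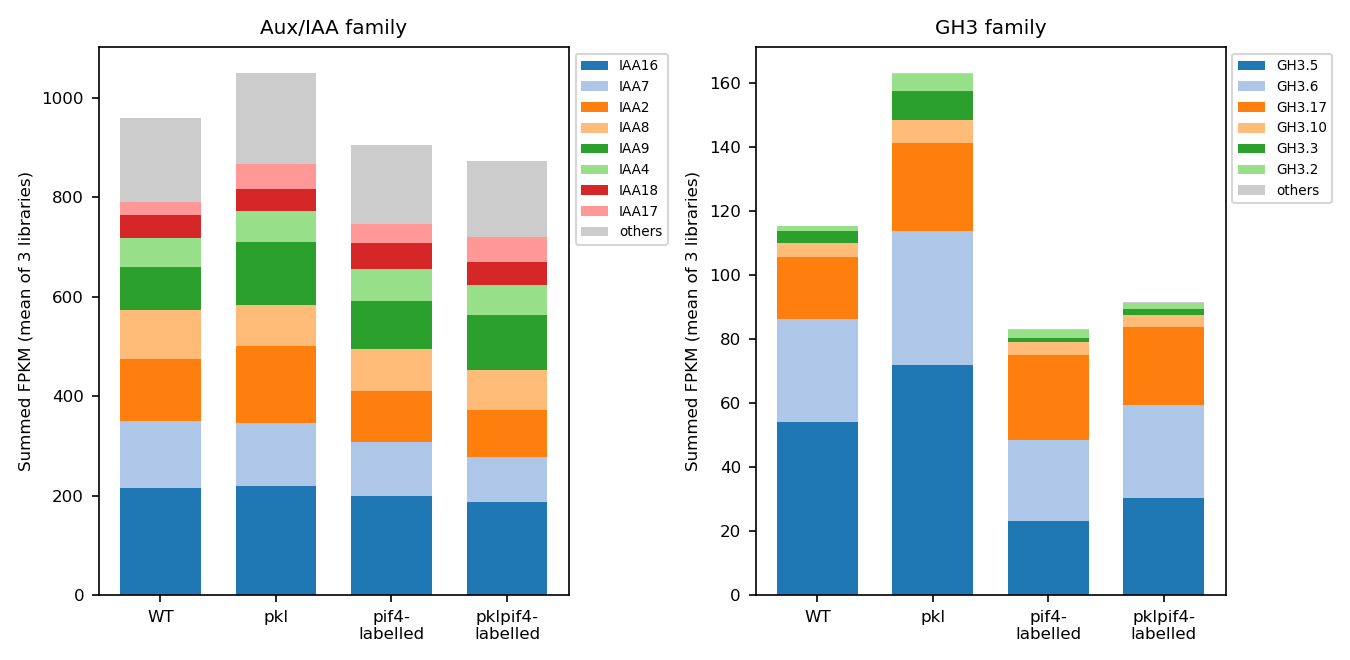
Summed FPKM of the Aux/IAA family (left) and the GH3 family (right) in each genotype, as stacked means of 3 libraries with the most abundant genes coloured. GH3.5, the lowest block on the right, had a mean of 54.1 FPKM in WT, 72.0 in pkl, 23.0 in pif4-labelled and 30.4 in pklpif4-labelled libraries.

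In pkl against WT, GH3 genes rose and Aux/IAA genes went both ways. Of the 34 tested genes 14 rose and 7 fell, or 61.8%, beside 53.6% of all genes tested (27.1% higher, 26.5% lower). Their median log2 change was 0.21, against 0.00 over all genes tested. Of the 7 GH3 genes 6 rose and 0 fell, with a median of 0.67. The exception was GH3.1, at 1.08 ± 0.65 with an adjusted p of 0.156. Of the 27 Aux/IAA genes 8 rose and 7 fell, with a median of 0.09. Those that rose included IAA28, IAA17 and IAA29, and those that fell included IAA14, IAA11 and IAA12. Among all genes tested 10.9% were called with at least a 2-fold change, 1762 higher and 649 lower. Among the 34 these were the 4 genes IAA28, IAA31, GH3.2 and GH3.3, all higher, a share close to that of all genes.

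In pif4-labelled libraries against WT, more Aux/IAA genes fell than rose and the GH3 genes split. Of the 34 genes 9 rose and 13 fell, or 64.7%, beside 32.5% of all genes tested (16.2% in each direction). The median was -0.16, against 0.00 over all genes. Among Aux/IAA genes 6 rose and 10 fell. The deepest falls were in IAA6, IAA29 and IAA19, at -3.66 ± 0.61, -3.25 ± 0.18 and -1.84 ± 0.15. Of the GH3 genes GH3.3, GH3.5 and GH3.6 fell, and GH3.1, GH3.2 and GH3.17 rose. Among all genes 6.21% were called with at least a 2-fold change (859 higher, 516 lower). Among the 34 there were 6, of which 5 were lower and GH3.1 higher.

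In pklpif4-labelled libraries against WT, 8 of the 34 genes rose and 15 fell, or 67.6%, beside 54.8% of all genes tested (27.2% higher, 27.7% lower), with a median of -0.13. With at least a 2-fold change there were 2 higher and 5 lower, beside 12.9% of all genes (1825 higher, 1032 lower). Against pkl, 3 rose and 18 fell, or 61.8%, beside 39.9% of all genes (19.5% higher, 20.5% lower), with a median of -0.18. At least 2-fold changes were 1 higher and 6 lower, beside 6.37% of all genes (615 higher, 795 lower). The 3 that rose were IAA12, IAA20 and IAA26. The call of IAA12 was lost without pkl replicate 1 (0.16, edgeR adjusted p = 0.0988), and that of IAA26 in 5 alternatives, among them library totals (0.11, 0.0911) and leaving out pkl replicate 3 (0.13, 0.0649) or pklpif4-labelled replicate 2 (0.11, 0.136). Of the 7 tested GH3 genes 6 fell, the exception being GH3.1, with a GH3 median of -0.90. Against pif4-labelled libraries, 10 rose and 11 fell, or 61.8%, beside 50.2% of all genes (25.5% higher, 24.7% lower), with a median of 0.00. At least 2-fold, 4 rose and 1 fell, beside 9.35% of all genes (1260 higher, 809 lower). The split of all calls was 10 and 7 without pif4-labelled replicate 1 and 10 and 6 without pklpif4-labelled replicate 2. The comparisons with WT share its 3 libraries, so their counts are not independent of each other.

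**Figure D2:**
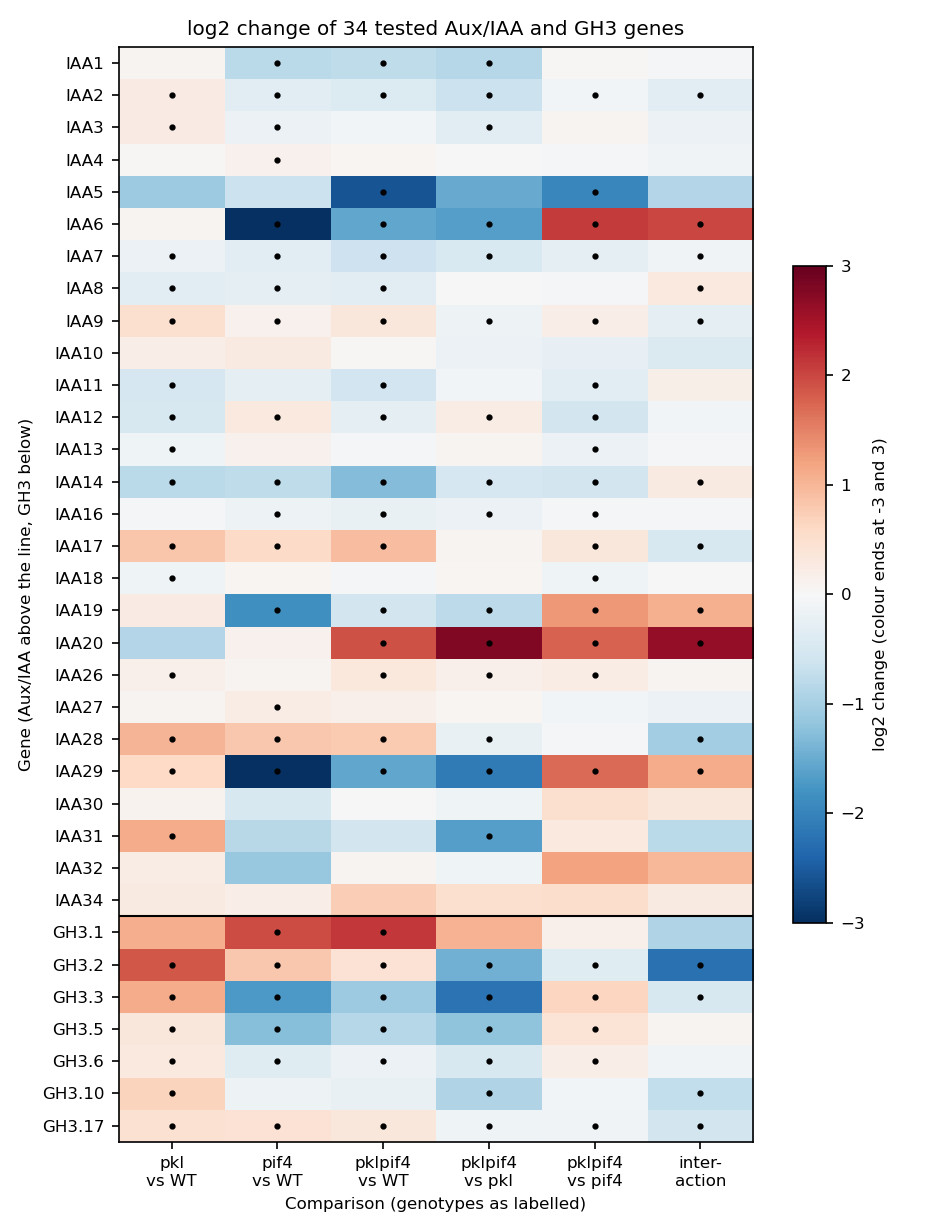
log2 change of each of the 34 tested genes (rows) in the 6 comparisons (columns), with colour from blue (lower) to red (higher) and a dot where the edgeR adjusted p was below 0.05. In the pklpif4 against pkl column 18 of the 21 dotted cells are lower, and IAA20 is the deepest red at 2.77.

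IAA6, IAA29 and IAA19, given first, had the deepest falls among the 34 genes in pif4-labelled libraries. IAA29 (AT4G32280, chr4:15583387-15584769), a gene induced by shade and warmth, had 7.14, 6.57 and 7.27 CPM in the WT libraries, 10, 11.2 and 10.3 in pkl, 0.899, 0.737 and 0.546 in pif4-labelled and 2.64, 2.13 and 2.42 in pklpif4-labelled libraries. The 4 groups did not overlap, in the order pkl, WT, pklpif4-labelled, pif4-labelled. It rose by 0.59 ± 0.13 in pkl (edgeR adjusted p = 6.69e-05) and was lower by a log2 change of -3.25 ± 0.18 in pif4-labelled libraries (3.45e-32). Against pkl, the pklpif4-labelled libraries were at -2.13 ± 0.15 (2.36e-25).

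IAA19 (MSG2, AT3G15540, chr3:5264024-5265678), a repressor of hypocotyl tropisms, had 6.98, 7.79 and 7.05 CPM in WT, 9.26, 7.79 and 8.58 in pkl, 1.5, 2.82 and 1.74 in pif4-labelled and 4.83, 5.35 and 4.72 in pklpif4-labelled libraries. WT and pkl met at 7.79, and the pklpif4-labelled libraries lay between them and the pif4-labelled ones. The change was -1.84 ± 0.15 in pif4-labelled against WT (adjusted p = 9.46e-20) and -0.78 ± 0.14 in pklpif4-labelled against pkl (6.51e-07). In pkl against WT it was 0.24 ± 0.13 (0.126).

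IAA6 (SHY1, AT1G52830, chr1:19672496-19673644), known from light-grown seedlings, was rarer. It had 0.615, 0.917 and 1.14 CPM in WT and 1.03, 0.781 and 0.977 in pkl. The pif4-labelled libraries had 0.150, 0 and 0.0496 CPM, from 7, 0 and 2 counts. The pklpif4-labelled ones had 0.483, 0.328 and 0.0521 CPM. All pif4-labelled and pklpif4-labelled libraries were below all WT and pkl libraries. The change was -3.66 ± 0.61 in pif4-labelled against WT (adjusted p = 2.73e-07), and it was -5.10 without pif4-labelled replicate 1 and -3.06 without replicate 2. In pklpif4-labelled libraries it was -1.56 ± 0.48 against WT (0.00369), a call lost without pklpif4-labelled replicate 3 (-1.11, adjusted p = 0.056).

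IAA6 and IAA19 also shared the longest identical stretch upstream. In the 300 bases before each of the 37 gene starts, 666 pairs of genes were compared on their own strands, and the longest shared run was 23 bases, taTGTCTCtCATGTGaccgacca, at chr1:19673811-19673833 for IAA6 and chr3:5263815-5263837 for IAA19. It began 181 and 186 bases before the gene start. It holds TGTCTC, the core of the auxin response element that ARFs bind, and CATGTG, the reverse complement of CACATG, a PIF-binding box. The windows are shown whole, 5′ to 3′ on the gene's strand and ending at the base before the RefSeq gene start, with these motifs and the G-box CACGTG, on either strand, in capitals.
IAA6, chr1:19673653-19673952, minus strand: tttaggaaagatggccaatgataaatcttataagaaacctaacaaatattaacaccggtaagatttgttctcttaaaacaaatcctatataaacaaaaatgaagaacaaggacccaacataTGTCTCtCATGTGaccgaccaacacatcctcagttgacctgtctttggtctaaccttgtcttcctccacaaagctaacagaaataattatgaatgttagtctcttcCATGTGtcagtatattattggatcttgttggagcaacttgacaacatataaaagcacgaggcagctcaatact
IAA19, chr3:5263701-5264000, plus strand: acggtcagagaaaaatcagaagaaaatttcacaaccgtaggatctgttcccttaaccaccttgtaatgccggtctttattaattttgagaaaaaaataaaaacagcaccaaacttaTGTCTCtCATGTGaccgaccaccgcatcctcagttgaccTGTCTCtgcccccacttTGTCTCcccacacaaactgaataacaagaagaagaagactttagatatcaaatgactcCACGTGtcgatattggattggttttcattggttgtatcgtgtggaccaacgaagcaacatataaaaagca
The next longest run, of 18 bases, was shared by IAA20 and IAA30, cTGTCTCatcattccacc, at chr2:19307644-19307661 and chr3:22995629-22995646. Over the 37 windows and both strands, TGTCTC was found in 14 (37.8%), beside 13.0% of the 27443 annotated genes searched in the same way. CACATG was found in 12 (32.4%, beside 13.1%), the G-box CACGTG in 5 (13.5%, beside 7.09%) and TGTCGG, another ARF-binding sequence, in 6 (16.2%, beside 4.91%). These are different strings of 6 letters, and a match is only a match of letters. For some genes the RefSeq start lies well before the deposited one, so the window is not next to the deposited span. The GH3.10 window was chr4:1501600-1501899, while its deposited span on the minus strand was chr4:1497536-1499865. The IAA29 window held none of the 4.

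Aux/IAA genes known from root branching moved in different directions. IAA14 (SLR, AT4G14550, chr4:8347822-8350019), which blocks lateral root initiation, had 29.3, 31.9 and 31.6 CPM in WT, 17.4, 18.8 and 16.4 in pkl, 18.2, 18.7 and 17.8 in pif4-labelled and 13.2, 11.8 and 12.2 in pklpif4-labelled libraries. Every mutant library was below every WT library, and the pklpif4-labelled ones were the lowest. The changes against WT were -0.82 ± 0.07, -0.76 ± 0.07 and -1.31 ± 0.07 in pkl, pif4-labelled and pklpif4-labelled libraries (adjusted p = 6.77e-19, 6.21e-17 and 1.44e-31).

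IAA28 (AT5G25890, chr5:9033415-9034834), which sets the sites of lateral root founder cells, went the other way. It had 6.93, 7.72 and 6.68 CPM in WT, 14.5, 13.0 and 15.3 in pkl, 12.5, 13.6 and 11.1 in pif4-labelled and 11.9, 10.7 and 14.1 in pklpif4-labelled libraries. All WT libraries were below all others, and the mutant groups overlapped each other. It rose by 1.01 ± 0.10 in pkl, 0.81 ± 0.10 in pif4-labelled and 0.78 ± 0.10 in pklpif4-labelled libraries. The change of -0.23 ± 0.10 in pklpif4-labelled against pkl (adjusted p = 0.0458) was lost under DESeq2 (0.0763), under the replicate block (0.0515) and without each of 4 libraries, pkl replicates 1 and 3 and pklpif4-labelled replicates 1 and 2 (-0.21, -0.18, -0.21 and -0.14). Most of the tested root markers were also higher than in WT in these groups, as given above, while IAA14 fell in them. The part of root markers in either change was not tested.

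IAA17 (AXR3, AT1G04250, chr1:1136258-1138613), which acts in root and root hair growth, rose in every mutant group. Its level was 29.0 ± 1.18 CPM in WT, 51.5 ± 0.309 in pkl, 43.2 ± 1.66 in pif4-labelled and 54.8 ± 1.12 in pklpif4-labelled libraries (n = 3), with changes against WT of 0.83 ± 0.05, 0.57 ± 0.05 and 0.92 ± 0.05. IAA3 (SHY2), which limits root meristem size, was at 0.25 ± 0.05 in pkl, -0.17 ± 0.06 in pif4-labelled and -0.09 ± 0.06 in pklpif4-labelled libraries. The last value was not called, and the second was lost without WT replicate 2 (-0.11, adjusted p = 0.189) or pif4-labelled replicate 2 (-0.14, 0.0872) and with library totals (-0.13, 0.0614). IAA1, an early auxin-induced gene, was near WT in pkl (0.09 ± 0.12) and fell by 0.81 ± 0.13 in pif4-labelled and by 0.77 ± 0.13 in pklpif4-labelled libraries.

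The abundant Aux/IAA genes changed by less than 2-fold in every comparison. IAA16 had 280 ± 5.91 CPM in WT, 274 ± 2.31 in pkl, 253 ± 2.79 in pif4-labelled and 242 ± 4.6 in pklpif4-labelled libraries, and the changes against WT were -0.03, -0.15 and -0.22 (SE 0.02 each), the first not called. IAA7 had 215 ± 4.23, 192 ± 2.64, 170 ± 5.31 and 140 ± 3.32 CPM in the same order, a fall in each mutant group to -0.63 ± 0.03 in pklpif4-labelled libraries. IAA2 rose in pkl (0.25 ± 0.03) and fell in pif4-labelled (-0.32 ± 0.03) and pklpif4-labelled libraries (-0.40 ± 0.03). IAA8 fell in all 3 (-0.34, -0.28 and -0.33, SE 0.03 each), and IAA9 rose in all 3 (0.49, 0.13 and 0.34, SE 0.03 each).

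The ARF5 partner IAA12 (BODENLOS), known from the embryonic root, had 23.8 ± 0.19 CPM in WT, 17.1 ± 1.18 in pkl, 29.2 ± 1.01 in pif4-labelled and 19.9 ± 0.684 in pklpif4-labelled libraries. It fell where pkl was in the label, by 0.48 ± 0.07 and by 0.26 ± 0.07, and rose by 0.30 ± 0.07 in pif4-labelled libraries. Its close relative IAA13 was at -0.13 ± 0.06 in pkl, called with an adjusted p of 0.0383 and lost in 9 of the alternative settings. These included library totals (-0.07) and leaving out WT replicate 2 (-0.09), pkl replicate 1 (-0.11) or pkl replicate 2 (-0.11). IAA11, of the same branch, fell in pkl (-0.50 ± 0.11) and in pklpif4-labelled libraries (-0.58 ± 0.11).

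The other Aux/IAA genes with the core moved little. IAA4, IAA18, IAA26 and IAA27 had changes between -0.13 and 0.31 in the 3 comparisons with WT. Of these, IAA26 rose by 0.31 ± 0.05 in pklpif4-labelled libraries. IAA18 in pkl (-0.13), IAA26 in pkl (0.15) and IAA4 and IAA27 in pif4-labelled libraries (0.13 and 0.23) were called, and each lost its call without at least 1 single library. Those libraries were WT replicate 1 (-0.08) and pkl replicate 2 (-0.10) for IAA18 and WT replicate 2 (0.11) and pkl replicate 2 (0.13) for IAA26. For IAA4 they were WT replicate 3 (0.11) and pif4-labelled replicates 2 (0.12) and 3 (0.09), and for IAA27 pif4-labelled replicates 1 (0.21) and 2 (0.20). IAA10 passed in 0 of the 6 edgeR comparisons, and its largest change from WT was 0.27 ± 0.18 (pif4-labelled, adjusted p = 0.261).

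IAA5 (AT1G15580, chr1:5365665-5366497), an auxin-induced gene with a strong early response, was rare and variable. It had 0.687, 0.204 and 0.351 CPM in WT, 0.203, 0.0237 and 0.372 in pkl, 0.214, 0.421 and 0.174 in pif4-labelled and 0.0879, 0.0410 and 0.0782 in pklpif4-labelled libraries. The pklpif4-labelled libraries were all below the WT and pif4-labelled ones and overlapped pkl. The change was -2.60 ± 0.72 against WT (adjusted p = 0.0013), from 9 counts against 59, and the call was lost without WT replicate 1 (-1.98, adjusted p = 0.0512). Against pif4-labelled libraries it was -1.96 ± 0.76 (0.0255), lost without pif4-labelled replicate 2 (-1.48) and without pklpif4-labelled replicates 2 (-1.68) or 3 (-2.05), and on log2(FPKM + 1) (-0.36).

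Among the Aux/IAA genes without the core, IAA20 (AT2G46990, chr2:19307855-19308990) rose in pklpif4-labelled libraries. It had 0.289, 0.0509 and 0.108 CPM in WT, 0.0368, 0.0947 and 0.140 in pkl, 0.214, 0.169 and 0.149 in pif4-labelled and 0.659, 0.595 and 0.574 in pklpif4-labelled libraries. Every pklpif4-labelled library was above every other library, and the other groups overlapped. It rose in them by 1.90 ± 0.58 against WT (adjusted p = 0.00359), and by 2.91 without WT replicate 1. It rose by 2.77 ± 0.64 against pkl (0.000169) and by 1.76 ± 0.57 against pif4-labelled libraries (0.00698). The counts behind these levels were 22, 12, 24 and 81 over 3 libraries. Seed and embryo markers were high in the same libraries, as given above, and 27.2% of all genes tested were higher there than in WT. The part of these markers in the rise of IAA20 was not tested.

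IAA31 (AT3G17600, chr3:6020025-6021142) had 0.832, 0.356 and 0.459 CPM in WT, 1.55, 0.805 and 1.28 in pkl, 0.300, 0.211 and 0.447 in pif4-labelled and 0.681, 0.123 and 0.365 in pklpif4-labelled libraries. Levels in pkl overlapped WT and lay above both other groups. Its rise in pkl, 1.11 ± 0.41 (adjusted p = 0.0168), was lost without WT replicates 2 (0.88) or 3 (0.99) or pkl replicate 1 (0.89). It was lower in pklpif4-labelled libraries than in pkl by a log2 change of -1.65 ± 0.43 (0.000879), and of -2.36 without pklpif4-labelled replicate 1. IAA30, IAA32 and IAA34 passed in 0 of the 6 comparisons, on 11 to 96 counts per group, with changes from WT between -1.13 and 0.74. IAA34 in pklpif4-labelled libraries was the 1 of them called by another tool, limma on log2(FPKM + 1) (0.39, adjusted p = 0.031) and on log2(FPKM + 0.1) (0.76, 0.0415).

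For IAA33 and IAA15, below the filter on low counts, counts are given. IAA33, linked to root stem cells, had 2 counts in WT, 6 in pkl, 7 in pif4-labelled and 24 in pklpif4-labelled libraries. The ratio of pklpif4-labelled to WT was 11.9 and that to pkl was 4.21. Their exact 95% binomial intervals, computed on halved counts, were 1.76 to 509 and 1.14 to 23.2, counting error only. IAA15 had 12, 1, 5 and 2 counts in the same order, and the ratio of WT to pkl was 12.7 (interval 0.772 to 293, also on halved counts).

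**Figure D3:**
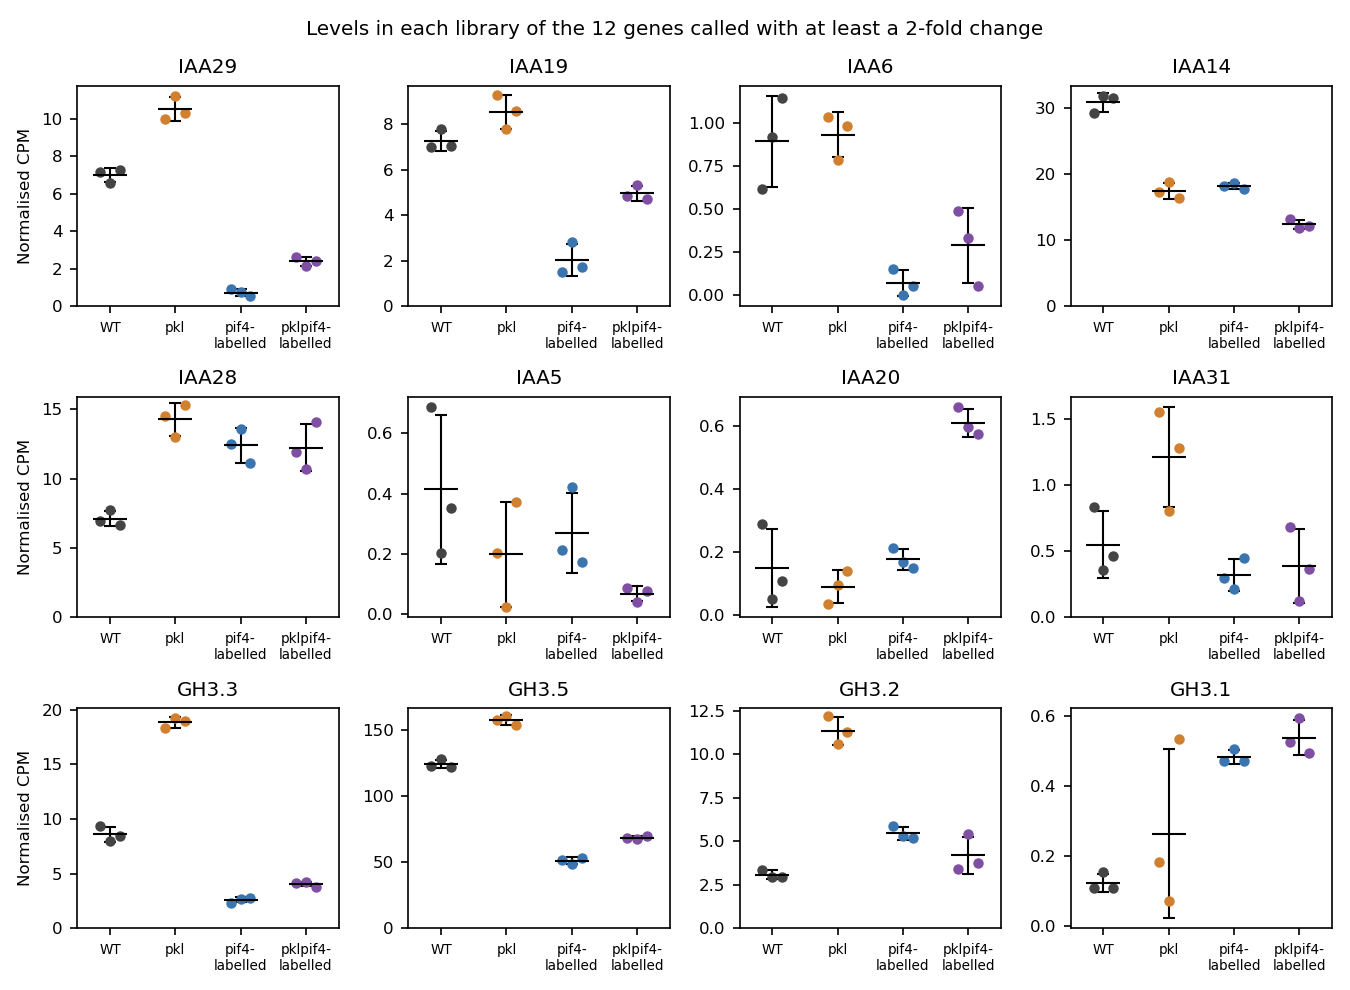
Normalised CPM in each of the 12 libraries (points; bar and whiskers are mean and SD of 3) for the 12 genes called with at least a 2-fold change in some comparison. IAA20 is between 0.574 and 0.659 in pklpif4-labelled libraries and at most 0.289 elsewhere, and GH3.2 is at least 10.6 in pkl and at most 5.90 elsewhere.

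Mean levels of the GH3 genes were highest in pkl, with the exceptions of GH3.1 and GH3.4. GH3.2 (YDK1, AT4G37390, chr4:17579657-17582022), which conjugates auxin and restrains hypocotyl and root growth, had 3.38, 2.95 and 2.95 CPM in WT, 12.2, 10.6 and 11.3 in pkl, 5.90, 5.31 and 5.19 in pif4-labelled and 3.41, 5.43 and 3.75 in pklpif4-labelled libraries. The pkl libraries lay apart above all others, and the pklpif4-labelled ones overlapped the pif4-labelled. It rose by 1.87 ± 0.14 in pkl (adjusted p = 1.77e-23) and by 0.81 ± 0.14 in pif4-labelled libraries (1.22e-06). The change of 0.44 ± 0.15 in pklpif4-labelled libraries (0.00782) was lost without pklpif4-labelled replicate 2 (0.20, adjusted p = 0.312). Against pkl these libraries were at -1.43 ± 0.13 (1.74e-17). Against pif4-labelled libraries they were at -0.37 ± 0.14 (0.0178), lost without pif4-labelled replicate 1 (-0.31) or pklpif4-labelled replicates 1 (-0.24) or 3 (-0.30) and at -0.61 without pklpif4-labelled replicate 2.

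GH3.3 (AT2G23170, chr2:9863855-9866562), an auxin-conjugating enzyme also tied to rooting, had 9.37, 8 and 8.49 CPM in WT, 18.3, 19.2 and 19.0 in pkl, 2.33, 2.70 and 2.78 in pif4-labelled and 4.11, 4.24 and 3.81 in pklpif4-labelled libraries. The 4 groups did not overlap. It rose by 1.12 ± 0.10 in pkl (1.39e-17 as adjusted p) and was at -1.73 ± 0.12 in pif4-labelled (6.18e-24) and -1.09 ± 0.12 in pklpif4-labelled libraries (2.02e-14). GH3.5 (AT4G27260, chr4:13653609-13656204) ranked the groups in the same order. It had 123, 128 and 122 CPM in WT, 158, 161 and 154 in pkl, 51.9, 48.7 and 53.4 in pif4-labelled and 68.4, 67.6 and 70.2 in pklpif4-labelled libraries, again with no overlap, and its changes against WT were 0.35 ± 0.03, -1.27 ± 0.04 and -0.85 ± 0.04. GH3.6 followed with smaller changes of 0.30, -0.37 and -0.18 (SE 0.04 each).

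GH3.17 rose in all mutant groups and GH3.10 in pkl. GH3.17, whose loss lengthens hypocotyls, had 43.3 ± 1.1 CPM in WT, 59.3 ± 1.13 in pkl, 58.4 ± 3.03 in pif4-labelled and 54.5 ± 0.505 in pklpif4-labelled libraries (log2 changes 0.45, 0.43 and 0.33, SE 0.05 each). GH3.10 (DFL2), a regulator of hypocotyl growth in light, had 9.08 ± 1.47, 14.6 ± 1.43, 8.25 ± 0.776 and 7.79 ± 0.659 CPM in the same order, with a log2 change of 0.67 ± 0.10 in pkl, and -0.15 ± 0.11 and -0.23 ± 0.11, not called, in the others. GH3.1 (AT2G14960, chr2:6451372-6453670) was close to silent in WT with 0.109, 0.153 and 0.108 CPM. It had 0.184, 0.071 and 0.535 in pkl, 0.471, 0.506 and 0.471 in pif4-labelled and 0.527, 0.595 and 0.495 in pklpif4-labelled libraries. Its rises of 1.96 ± 0.60 (adjusted p = 0.00685) and 2.12 ± 0.60 (0.00156) in the last groups came from 16 counts in WT against 65 and 72, and the first was lost on log2(FPKM + 1) (0.22, 0.0546). How reads that match several GH3 copies were assigned is not stated in the labels or files, so levels of close relatives are uncertain.

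The same label added to WT and to the other mutant could be compared in libraries that are not shared. Adding the pif4 label to WT and to pkl gave log2 changes with Pearson's r over the 34 genes of 0.632 and Spearman's rho of 0.675, given as a description across genes measured in the same libraries. Of the genes, 17 were called in both comparisons, 13 with the same sign, beside 19.1% of all genes tested called in both, 67.9% of these with the same sign. The 4 with opposite signs were IAA9, IAA28, GH3.2 and GH3.17, all higher in pif4-labelled against WT and lower in pklpif4-labelled against pkl. The median of the 7 GH3 genes was -0.15 in the first and -0.90 in the second. For the pkl label r was 0.203 and rho 0.378. Of 16 genes called in both, 13 had the same sign and IAA2, GH3.2 and GH3.17 had opposite signs, beside 34.7% of all genes called in both and 86.2% of these with the same sign. The GH3 median was 0.67 in WT and 0.16 in pif4-labelled libraries. Some of these calls were close to the threshold. GH3.17 in pklpif4-labelled against pkl (-0.12 ± 0.04) was lost without pkl replicate 1 (-0.11, adjusted p = 0.0797) or pklpif4-labelled replicate 1 (-0.11, 0.0651). In pklpif4-labelled against pif4-labelled libraries, GH3.17 (-0.10 ± 0.04, adjusted p = 0.0487) was lost in 12 and IAA2 (-0.08 ± 0.03, 0.0402) in 6 of the alternative settings, single libraries left out among them. IAA2 was at -0.05 without pif4-labelled replicate 3.

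**Figure D4:**
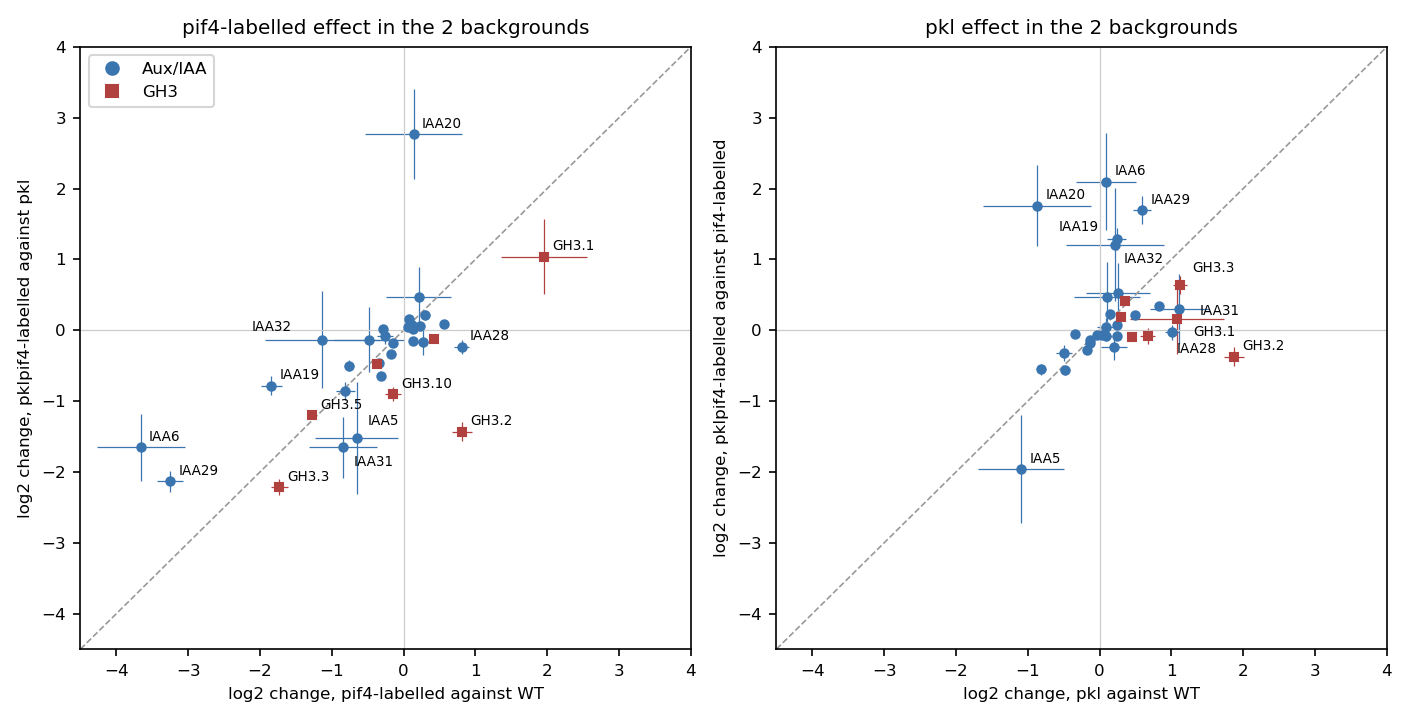
log2 change (± SE) of the 34 tested genes for the pif4 label in pkl against the same in WT (left) and for the pkl label in pif4-labelled libraries against the same in WT (right), with Aux/IAA genes as circles, GH3 genes as squares and the dashed line where both are equal. GH3.2 lies at 0.81 and -1.43 on the left and at 1.87 and -0.37 on the right.

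The difference between those effects was tested as the interaction, the pkl effect among pif4-labelled libraries less the pkl effect in WT. Of the 34 genes 6 were higher and 9 lower, or 44.1%, beside 31.9% of all genes tested (15.3% higher, 16.5% lower), with a median of -0.09. At least 2-fold were 4 higher and 2 lower, beside 7.81% of all genes (621 higher, 1108 lower). When libraries were scaled by their totals alone the split was 4 higher and 13 lower, and over all genes it was 2391 higher and 5297 lower. The higher calls numbered 3 without pif4-labelled replicate 3, without pkl replicate 1 and without pklpif4-labelled replicate 1, with 7, 9 and 9 lower in that order. IAA29 and IAA19 had interactions of 1.12 ± 0.24 (adjusted p = 6.78e-05) and 1.06 ± 0.21 (1.12e-05). For IAA29 the pkl label raised the level by 0.59 in WT and by 1.70 ± 0.20 in pif4-labelled libraries, and for IAA19 by 1.29 ± 0.16 in the latter. All 10 photosynthetic shoot markers had higher interactions, with a median of 0.83, and of the 13 seed and embryo markers 10 were higher and 0 lower, with a median of 4.97. Their part in the higher auxin gene interactions was not tested.

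The lower interactions were led by GH3.2 at -2.25 ± 0.19 (1.13e-18 as adjusted p) and IAA28 at -1.04 ± 0.14 (5.81e-10). For IAA28 the pkl effect was 1.01 ± 0.10 in WT and -0.03 ± 0.10 in pif4-labelled libraries (0.828). GH3.10 and GH3.17 were at -0.75 ± 0.15 and -0.56 ± 0.06, and IAA17 at -0.49 ± 0.07. Root and root hair markers had 0 higher and 10 lower interactions of 15 tested, with a median of -1.32, and their part in these values was not tested.

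Other genes of auxin signalling are given by list. Among all genes tested 53.6% were called in pkl, 32.5% in pif4-labelled and 54.8% in pklpif4-labelled libraries against WT. In the same order the shares were 66.7%, 50% and 33.3% for receptors and 66.7%, 40% and 60% for ARF genes. For TOPLESS genes they were 40%, 40% and 60%. Of the 6 auxin receptor genes 1 rose and 3 fell in pkl, 1 rose and 2 fell in pif4-labelled and 0 rose and 2 fell in pklpif4-labelled libraries, with TIR1 at -0.24 ± 0.03, -0.05 ± 0.03 and -0.27 ± 0.03. Of the 15 ARF genes 3 rose and 7 fell in pkl, 3 and 3 in pif4-labelled, and 4 and 5 in pklpif4-labelled libraries, and 0 were called with a 2-fold change. ARF5 (MONOPTEROS), the partner of IAA12, fell in all 3, by 0.45 ± 0.08, 0.23 ± 0.08 and 0.31 ± 0.08. Other ARF genes went differently. In WT, pkl, pif4-labelled and pklpif4-labelled libraries, ARF16 had means of 16, 20.8, 18.6 and 23.7 CPM, and ARF11 13.6, 16.9, 11.3 and 18.8. Of the 5 TOPLESS genes 0 rose and 2 fell in pkl, 2 and 0 in pif4-labelled, and 3 and 0 in pklpif4-labelled libraries, with the largest change in TPR3 (0.42 ± 0.08, pklpif4-labelled).

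Some genes for enzymes that undo or bypass GH3 conjugation rose in pkl and fell in pif4-labelled libraries. Of the 8 tested of 9 hydrolase and oxidase genes, 4 rose and 0 fell in pkl, 2 and 3 in pif4-labelled, and 2 and 3 in pklpif4-labelled libraries. These were 50%, 62.5% and 62.5%, beside 53.6%, 32.5% and 54.8% of all genes tested. The amidohydrolase genes IAR3, ILR1 and ILL6, which release free auxin or act on related conjugates, rose in pkl by 0.54 ± 0.04, 0.53 ± 0.09 and 0.48 ± 0.05. In pif4-labelled libraries they were at -0.60 ± 0.05, -0.45 ± 0.10 and -0.85 ± 0.05. Of the 9 transporter genes 2 rose and 6 fell in pkl, 4 and 1 in pif4-labelled, and 3 and 4 in pklpif4-labelled libraries (88.9%, 55.6% and 77.8%). PIN2, a root efflux carrier, rose by 1.84 ± 0.10, 1.70 ± 0.10 and 2.47 ± 0.10, and the part of the root markers given above in this was not tested.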

How the data were processed

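Per the labels' protocols, poly(A) RNA of whole seedlings was prepared with a TruSeq kit and sequenced on a HiSeq Xten instrument. The submitters' processing notes name fastp, HISAT2 2.1.0, SAMtools 1.6 and the TAIR10 build. Which program counted the reads, whether strand was used and how reads with several matches were handled is not given in the sources used here. Deposited by the authors were raw counts per gene with exon positions and lengths, per the file headers, and the authors' FPKM, which the counts reproduce to within 4.35e-07. Of counts from 1 to 8, 70.9% to 74.3% per library were even, so both mates of each pair may have been counted, and halved counts were an alternative. The tables named for red light held the same 403344 counts and 403344 FPKM values, of which 0 differed, so their 24 columns were not used and the growth condition rests on column names.

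Genes passing filterByExpr (minimum count 10, minimum total 15; 22130 of 33612) were fitted with edgeR 4.0.16 in R 4.3.3, as 1 robust quasi-likelihood model over the 12 libraries with TMM factors and Benjamini-Hochberg adjustment at 0.05 (two-sided). The SE is the log2 change divided by the square root of F. Normalised CPM use TMM factors, FPKM use library totals alone. The fit was tested on simulated data. Alternatives were RLE factors, library totals, other filters, DESeq2 1.42.0, limma 3.58.1 on log2(FPKM + 1) and log2(FPKM + 0.1), halved counts, a replicate block and each library left out. Same-numbered libraries showed no shared deviation, and the labels do not say whether replicate numbers pair them. Intervals were computed on halved counts, rounded up, and cover counting error only.

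The genes, the lists and the tests were chosen with earlier results of these data known. Genes called with at least a 2-fold change in any of the 6 comparisons are given in every library, and other members by group means, changes or ranges. Other pathway genes are named at most 3 per list. The p-values weigh differences between groups against the spread between libraries of the same genotype. The biological replicates are not described further, so whether that spread covers separate plants, pools or preparations is not known.

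Of the identifiers, 28932 matched the reference. Sequences were read from TAIR10.1 with the RefSeq annotation. On that genome 103 of the 106 introns between the deposited exons of these genes began and ended with the usual splice bases, and all 37 genes lay inside the RefSeq gene of the same identifier. Levels between genes are compared only as FPKM.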

Additional observations from a re-analysis of the deposited data

Results flagged for a closer look

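For 15 of the 34 tested genes the effect of the pkl label differed between the pif4-labelled and the WT background, by edgeR's test of the interaction itself. Values are the log2 pkl effect in pif4-labelled libraries minus that in WT. It was positive for IAA20 (2.63), IAA6 (2.01), IAA29 (1.12), IAA19 (1.06), IAA8 (0.30) and IAA14 (0.26). It was negative for GH3.2 (-2.25), IAA28 (-1.04), GH3.10 (-0.75), GH3.17 (-0.56), IAA17 (-0.49), GH3.3 (-0.48), IAA2 (-0.33), IAA9 (-0.28) and IAA7 (-0.11). The share of all genes called in the same test was 31.9%.

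Some of these calls were lost in alternative settings. IAA6 was lost in 14 alternative settings, with 3.45 without pif4-labelled replicate 1 and 1.42 without replicate 2. IAA20 was lost without WT replicate 1 (1.62, adjusted p = 0.352), pif4-labelled replicate 3 (2.52), pkl replicate 1 (2.20) or pklpif4-labelled replicate 1 (2.56), and when every gene with a count was tested (2.59). IAA14 was lost in 11 settings (0.18 to 0.26). IAA7 was lost without WT replicate 2, pif4-labelled replicates 2 or 3 (-0.10 each) or pklpif4-labelled replicate 2 (-0.09). GH3.3 was lost without WT replicate 2 (-0.42), pif4-labelled replicates 2 (-0.45) or 3 (-0.43) or pklpif4-labelled replicate 3 (-0.43).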

How the results depend on the processing

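No total of called genes moved by more than 1.5 times in the alternatives run. By direction, lower calls against pif4-labelled libraries went from 11 to 7 without pif4-labelled replicate 1 and 6 without pklpif4-labelled replicate 2, and higher interaction calls from 6 to 3 without pif4-labelled replicate 3, pkl replicate 1 or pklpif4-labelled replicate 1. Of the single-gene values 0 changed sign with a call. Of 4218 gene values under alternatives, 4063 kept their side of the threshold, 117 lost a call and 38 gained one, in 45 of 204 results. A value called in neither fit counts as kept even where its sign changed. With 1 library left out, 18 to 22 genes were called in pkl against WT, 19 to 23 in pif4-labelled against WT, 22 to 24 in pklpif4-labelled against WT, 18 to 22 against pkl, 16 to 21 against pif4-labelled libraries and 10 to 15 in the interaction. Library totals moved the interaction from 6 higher and 9 lower to 4 and 13, as did both fits of FPKM. With the replicate block the counts were 21, 22, 23, 20, 21 and 14, in the order above. Deviations of same-numbered libraries from their group means correlated at -0.0267 to 0.0202, others at -0.0283 to 0.0458. Same-numbered libraries thus showed no shared deviation, but whether they were handled together is not known. Genes under 1 CPM rest on few counts, and their changes shrink on log2(FPKM + 1). The causes of these shifts were not tested.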
